A study of Mus musculus with 34 samples.

Results

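Kdr, Sox18, Car4 and Selp are 4 genes of blood vessel endothelium among the 18617 genes with a symbol on the arrays of epididymal fat analysed here. They were selected on their log ratios over all pairings of these data and then taken by name through the platform annotation of the probes, so their values are a description and carry no test. Each is read by 1 probe. On GRCm38.p6 all 4 are protein-coding genes: Kdr (NM_010612) lies at chr5:75932827-75979072, Sox18 (NM_009236) at chr2:181669837-181671640, Car4 (NM_007607) at chr11:84957754-84966054 and Selp (NM_011347) at chr1:164115264-164150026.

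The arrays held RNA of mice from a lineage kept on a high fat diet, HF0, HF1, HF3 and HF4, of reversal groups, and of STD mice on a normal diet. HF0 were the offspring of STD mice and were fed the high fat diet. HF1 were offspring of HF0, HF3 of HF2 and HF4 of HF3, all on the high fat diet, whereas HF1-REV, HF3-REV and HF4-REV had the same parents as HF1, HF3 and HF4 but ate the normal diet. HF2 itself was not analysed here. The series has 34 two-colour arrays in 16 pairings of 2 groups, 12 arrays and 6 pairings in experiment 1 and 22 arrays and 10 pairings in experiment 2. HF1 and the reversal groups were hybridised in experiment 2 alone. The sources used here give neither strain and age nor the number of animals behind an extract.

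Endothelial cells line every blood vessel, and in fat they also carry fatty acids from the capillary to the adipocyte. Kdr encodes VEGF receptor 2, the receptor through which VEGF-A drives endothelial growth and survival, and Sox18 is a SoxF transcription factor of vessel and lymphatic development. Car4 encodes carbonic anhydrase 4, an enzyme anchored to the luminal face of capillary endothelium that converts carbon dioxide to bicarbonate, and is known in rat and human also from the epithelium of the epididymis. Selp encodes P-selectin, an adhesion molecule that endothelial cells, mainly of venules, and platelets store in granules and bring to the surface to catch leukocytes.

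The promoters of Kdr and Car4 are shown because these genes had the most similar values of all pairs of members, and that of Selp because its values ran apart from theirs. The sequences are those of RefSeq on GRCm38.p6, each a window of 300 bases. For Car4 and Selp it opens 250 bases upstream of the gene's annotated start. For Kdr it lies 367 to 666 bases inside the annotated gene, counted from its upstream end. They lie at chr5:75978406-75978705 on the minus strand for Kdr, at chr11:84957504-84957803 on the plus strand for Car4 and at chr1:164115014-164115313 on the plus strand for Selp. Capitals mark matches, on either strand, to motifs named and spelled out after the sequences.
Kdr: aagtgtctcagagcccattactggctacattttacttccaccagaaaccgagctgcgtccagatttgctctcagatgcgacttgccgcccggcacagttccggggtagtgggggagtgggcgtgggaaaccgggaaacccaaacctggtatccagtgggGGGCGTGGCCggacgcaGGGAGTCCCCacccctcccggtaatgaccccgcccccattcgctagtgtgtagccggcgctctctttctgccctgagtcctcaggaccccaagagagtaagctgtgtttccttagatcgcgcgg
Car4: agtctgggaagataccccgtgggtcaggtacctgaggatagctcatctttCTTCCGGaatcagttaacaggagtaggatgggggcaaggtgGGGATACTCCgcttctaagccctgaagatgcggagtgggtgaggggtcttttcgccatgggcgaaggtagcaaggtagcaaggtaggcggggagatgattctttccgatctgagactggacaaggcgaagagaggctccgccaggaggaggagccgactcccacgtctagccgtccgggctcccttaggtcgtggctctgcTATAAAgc
Selp: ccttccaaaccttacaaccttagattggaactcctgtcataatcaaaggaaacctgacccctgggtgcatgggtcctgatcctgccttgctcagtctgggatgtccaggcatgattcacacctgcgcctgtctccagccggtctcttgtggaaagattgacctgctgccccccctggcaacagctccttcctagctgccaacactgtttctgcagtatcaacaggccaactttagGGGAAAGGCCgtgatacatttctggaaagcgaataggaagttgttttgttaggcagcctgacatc
The kappaB-like site was searched as GGGNNNNNCC; the Kdr window holds 2 matches and the Car4 and Selp windows 1 each, and 50.4% of 27025 mouse promoters of the same length hold these letters. The ETS site was searched as CCGGAAG, found 1 time in the Car4 window and in 9.12% of all promoters. The TATA box was searched as TATAAA, found 1 time in the Car4 window and in 14.2% of promoters. The Car4 match stands near the end of its window, which closes 49 bases inside the annotated gene. It thus lies downstream of the annotated start, and only its letters are those of a TATA box. For SOX factors the core ACAAT was searched, which 31.6% of promoters hold but none of these 3 windows. For GATA factors the letters were AGATAA, in 11.4% of promoters, and for the E-box they were CACGTG, in 7.24%, again with no match in the 3 windows. No motif match overlaps another. GC content was 60.7% for Kdr, 57.3% for Car4 and 51.7% for Selp.

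The authors deposited log ratios, taken here as log2, with no intensities. Each was coded as Cy5 over Cy3 and turned so that its sign is that of the group named first relative to the other. No source used here states which dye was the numerator, so a positive value can stand for more RNA of the first-named group or, on the other reading, for less. Opposite signs still mean opposite directions, whichever reading is right. The members' levels, and whether endothelial markers were present in the tissue at all, could not be read from ratios. In 13 of 16 pairings for Kdr, 14 for Car4, 15 for Sox18 and 16 for Selp, the arrays with the first-named group in Cy5 gave the higher value. This dye gap cancels in the mean of both orientations. The distance of an orientation from that mean had a median size between 0.22 for Car4 and 0.33 for Selp and reached 0.69.

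The pairings of the 2 experiments differed in whether they added up. In a loop of 4 groups, the ratio of 2 groups can be read from the arrays that hold both, or indirectly through the other pairings. In experiment 2 the direct and the indirect value of the members had the same sign in 24 of 24 cases, and their gap had a median size of 0.12 and a maximum of 0.40. In experiment 1 the sign was the same in 6 of 24 cases, and the gap had a median size of 1.40 and a maximum of 2.68. The Kdr value of HF4 over HF0 in experiment 1, for example, was 1.23 on the arrays with both groups and -1.45 through the others. Across all 22879 features, which are not independent, direct and indirect values correlated with r between 0.61 and 0.86 in experiment 2 and between -0.13 and 0.70 in experiment 1. Within pairings, sign-turned arrays of opposite dye had a median r of 0.36 in experiment 2, over 13 array pairs. It was 0.28 in experiment 1, over 6. HF0 with STD of experiment 2, with 4 arrays, gave several of those 13, at r between 0.38 and 0.50. Single pairings of experiment 2 ran from -0.31 in HF1 with HF1-REV to 0.57 in HF4 with HF4-REV. HF1 with HF0 had 0.04 and HF3 with HF1 had 0.07. Those of experiment 1 ran from -0.11 to 0.50, so array agreement did not set experiment 2 apart. The loop of experiment 2 holds HF0, HF1, HF3 and HF4 in 6 of its 10 pairings. Its pairings with STD or a reversal group have no indirect value and could not be checked this way. Because its loop added up, the array values of experiment 2 are given first. Values that average both experiments are set beside those of experiment 2 alone.

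**Figure D1:**
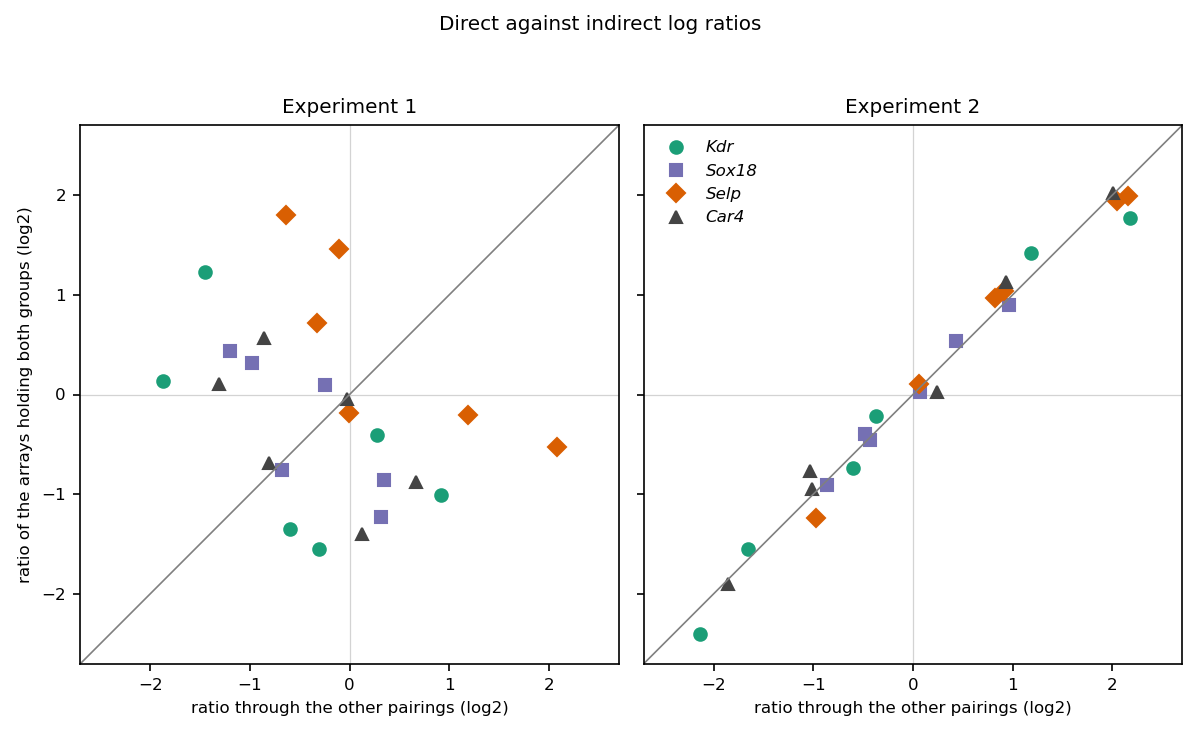
Log2 ratios of the 4 genes in each pairing of the 4-group loops, measured on the arrays that hold both groups (vertical axis) and through the other pairings (horizontal axis). Left, experiment 1, right, experiment 2; each point is 1 gene in 1 pairing and the line marks equal values. In experiment 2 all 24 points lie in the quadrants of equal sign, in experiment 1 only 6 of 24.

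Kdr separated HF1 and HF4-REV from HF0 and HF4 in experiment 2. In HF1 over HF0 its arrays gave 1.67 and 1.87. In HF4 over HF1 they gave -1.98 and -2.82, and in HF4 over HF4-REV -1.79 and -2.46, each pair with the first-named group in Cy5 first. In these 3 pairings the arrays of both dye orientations had the same sign. HF3 over HF0 gave 1.37 and 1.48, and HF4 over HF3 gave -1.05 and -2.04. HF3 over HF1 gave -0.23 and -1.25, and HF4 over HF0, with 0.38 and -0.81, split by dye. HF3 thus lay between HF1 and HF0 for this receptor, and HF4 was not separated from HF0.

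Against the normal diet, Kdr was at -0.66 and -0.77 in HF0 over STD with HF0 in Cy5 and at -1.41 and -2.00 with HF0 in Cy3, all from experiment 2. Its mean was -1.09 on one date in the labels and -1.33 on the other, each date holding both orientations. The arrays of experiment 1 gave 0.21 and 0.05 for the same pairing, outside the range of experiment 2. Only experiment 1 set HF3 and HF4 directly against STD. There Kdr gave -1.45 and -1.66 in HF3 over STD and -1.04 and -1.67 in HF4 over STD. Through the other pairings the values were -0.31 and -0.60. The reversal pairs of HF3 and HF1 were smaller than that of HF4: HF3 over HF3-REV gave -0.42 and -0.45, and HF1 over HF1-REV -0.26 and -0.98. All 6 arrays that set a high fat group against its reversal had the same sign for Kdr.

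In the fit over both experiments, where HF0, HF3, HF4 and STD enter as the mean of 2 experiments and HF1 and the reversal groups as 1, Kdr had -1.84 ± 0.46 (SE) in HF4 over HF4-REV, against -2.12 on the arrays of experiment 2 alone. It had -1.99 ± 0.46 in HF4 over HF1 and -2.27 from experiment 2 alone. Fit values of 1 experiment come from least squares over all its pairings. HF4 over HF3 moved most with experiment 1: it was -0.82 ± 0.36 over both experiments, -1.60 in experiment 2 and -0.04 in experiment 1. The arrays of experiment 1 that hold HF4 and HF3 gave -1.11 and -0.90, and 0.92 came through the other pairings. HF3 over HF0 had 0.62 ± 0.36 over both experiments, 1.30 in experiment 2 and -0.06 in experiment 1, where its arrays gave -0.26 and -0.55. No array of experiment 2 holds HF3 or HF4 with STD, so its values against STD ran through HF0 and could not be checked. Those of experiment 1 come from the loop that did not add up. HF3 over STD changed sign, with -0.42 ± 0.36 over both experiments, 0.09 in experiment 2 and -0.93 in experiment 1. HF4 over STD kept its sign, with -1.24 ± 0.36, -1.51 and -0.98. All SEs of members are those of the fit and describe the spread between the experiments.

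**Figure D2:**
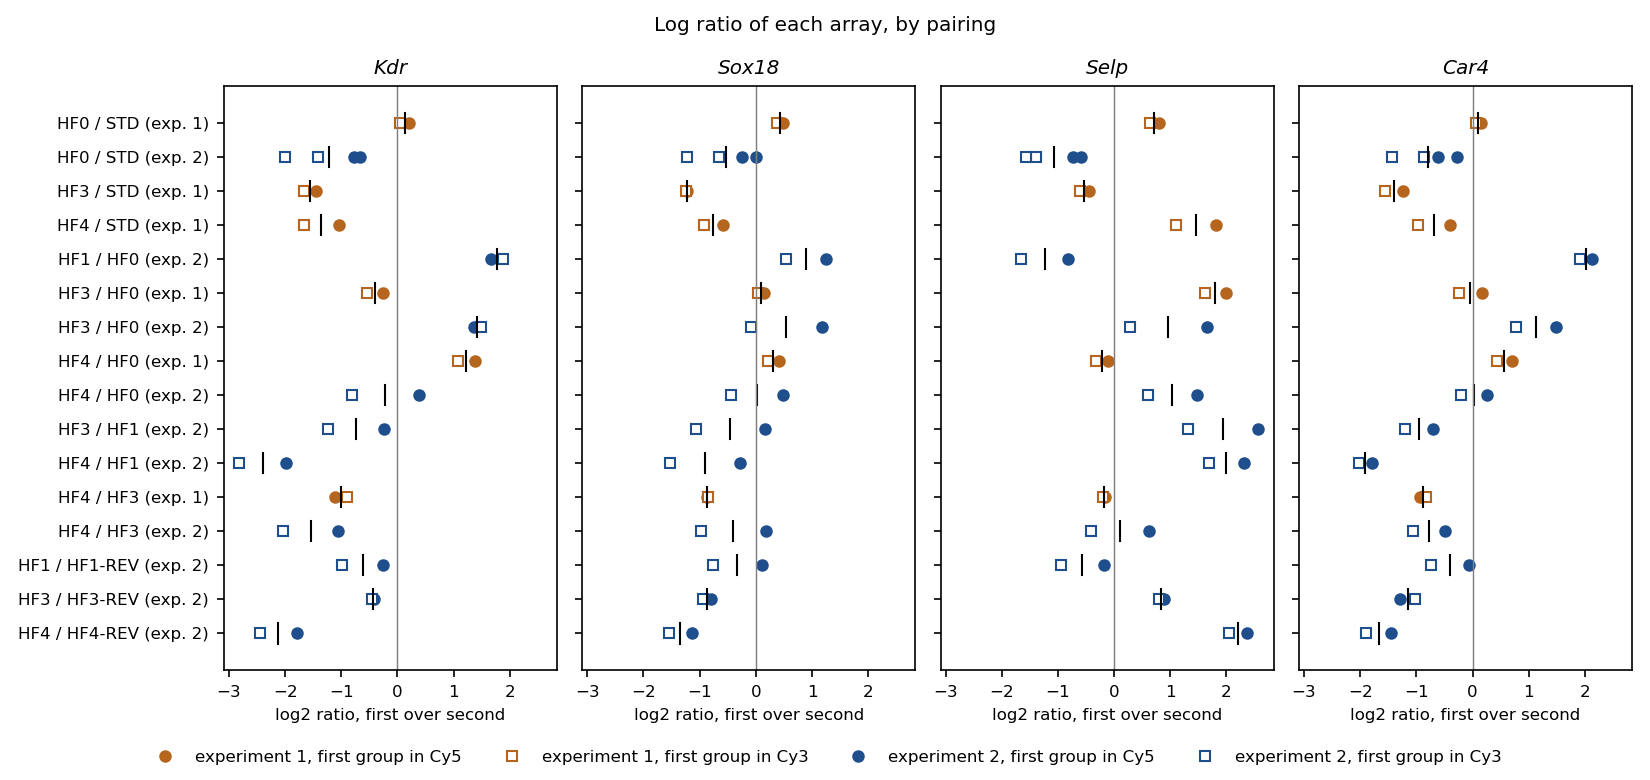
Log2 ratio of Kdr, Sox18, Selp and Car4 on each of the 34 arrays (horizontal axis), by pairing (rows, first-named over second-named group). Filled circles have the first group in Cy5 and open squares in Cy3, orange is experiment 1 and blue experiment 2, and black bars are the means of a pairing; in HF4 over HF4-REV, Selp reaches 2.05 and 2.37 where the other 3 genes lie between -1.13 and -2.46.

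Car4 had the sign of Kdr on all 22 arrays of experiment 2, and its dye orientations lay closer together than those of Kdr in 7 of 10 pairings. HF1 over HF0 gave 2.13 and 1.91, the most positive Car4 arrays of the series. HF4 over HF1 gave -1.79 and -2.02, and HF4 over HF4-REV gave -1.45 and -1.90. In these 3 pairings the values of the enzyme were several times the distance of an orientation from the mean, which was at most 0.23. HF3 over HF0 gave 1.49 and 0.78, HF3 over HF1 -0.70 and -1.20, and HF4 over HF3 -0.48 and -1.06. HF4 over HF0 split by dye at 0.26 and -0.20, as it did for Kdr.

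HF3 over HF3-REV was where Car4 went further than Kdr, with -1.29 and -1.02 against -0.42 and -0.45 for Kdr on the same arrays. HF1 over HF1-REV gave -0.07 and -0.74. In HF0 over STD the arrays of experiment 2 gave -0.27 and -0.61 with HF0 in Cy5 and -0.86 and -1.43 with HF0 in Cy3, while those of experiment 1 gave 0.15 and 0.06. Car4 was thus negative on all 6 reversal arrays and on all 4 arrays of HF0 over STD in experiment 2. In the fit it had 1.82 ± 0.33 in HF1 over HF0 (2.01 in experiment 2 alone), -1.83 ± 0.33 in HF4 over HF1 (-1.88) and -1.50 ± 0.33 in HF3 over HF3-REV (-1.15). HF4 over HF0 was -0.01 ± 0.26. On the arrays of experiment 1, Car4 gave -1.25 and -1.56 in HF3 over STD and -0.41 and -0.97 in HF4 over STD. Through the other pairings the values were 0.13 and -0.81. HF4 over HF3 gave -0.94 and -0.82 on the arrays of experiment 1, and 0.66 through its other pairings. The fit gave -0.70 ± 0.26 in HF4 over STD, with -0.66 in experiment 2, through HF0 alone, and -0.75 in experiment 1.

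Sox18 had the same direction with smaller values, and its arrays split by dye more often than those of the other members. HF4 over HF4-REV gave -1.13 and -1.55. HF3 over HF3-REV gave -0.80 and -0.94, so both late reversal pairs of this transcription factor were clear of 0 in both orientations. HF1 over HF0 gave 1.24 and 0.55, and HF4 over HF1 -0.27 and -1.54. Of its 16 pairings, 10 had 1 sign on all their arrays, against 15 for Kdr, 15 for Selp and 14 for Car4.

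The pairings of experiment 2 in which Sox18 arrays disagreed included HF3 over HF0, with 1.17 and -0.09, HF3 over HF1, with 0.16 and -1.07, and HF4 over HF3, with 0.19 and -0.98. HF1 over HF1-REV, at 0.12 and -0.77, and HF4 over HF0, at 0.49 and -0.44, also split. In experiment 1 HF4 over HF3 did not split, with -0.87 and -0.86, but it had 0.35 through the other pairings. Nor did HF3 over HF0 there, with 0.15 and 0.04, or HF4 over HF0, with 0.41 and 0.21. In HF0 over STD the arrays of experiment 2 ran from -1.23 to 0.0010, and those of experiment 1 gave 0.49 and 0.39. Apart from HF0 over STD, the Sox18 means of the split pairings of experiment 2 were smaller than the distance of an orientation from the mean. HF0 over STD had a mean of -0.53 with a distance of 0.41 in experiment 2, and 0.44 with 0.05 in experiment 1. The fit gave -1.40 ± 0.21 in HF4 over HF4-REV (-1.34 in experiment 2 alone), -1.01 ± 0.21 in HF3 over HF3-REV (-0.87) and 0.79 ± 0.21 in HF1 over HF0 (0.93). On the arrays of experiment 1, Sox18 gave -1.22 and -1.25 in HF3 over STD and -0.59 and -0.93 in HF4 over STD. Through the other pairings the values were 0.32 and -0.67. In the fit HF4 over STD had -0.60 ± 0.16, with -0.49 in experiment 2, through HF0 alone, and -0.72 in experiment 1.

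In the pairing means of experiment 2, Selp ran opposite to the other members in HF4 over HF4-REV, HF4 over HF1, HF3 over HF1 and HF1 over HF0. It also ran opposite in HF3 over HF3-REV, with 0.84 against -0.44 for Kdr, -0.87 for Sox18 and -1.15 for Car4. Its mean of 0.10 in HF4 over HF3 was opposite too, from arrays that split by dye. Selp had the sign of the other members in HF3 over HF0, with 0.97 where Kdr had 1.42 and Car4 1.13. Over both experiments its pairing mean had the sign of Kdr in 6 of 16 pairings. HF4 over HF4-REV gave 2.37 and 2.05, HF4 over HF1 2.31 and 1.69, and HF3 over HF1 2.57 and 1.32. HF1 over HF0 gave -0.82 and -1.65. In these 4 pairings HF1 and HF4-REV lay on one side for the P-selectin gene and HF0, HF3 and HF4 on the other. HF3 over HF0 gave 1.65 and 0.28, HF4 over HF0 1.47 and 0.61, and HF3 over HF3-REV 0.88 and 0.79. HF4 over HF3 split at 0.62 and -0.42, so the late generations were not separated.

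In HF1 over HF1-REV, Selp was at -0.18 and -0.95, the opposite sign to the reversal pairs of HF3 and HF4. In HF0 over STD it did not run opposite to Kdr: experiment 2 gave -0.60, -0.73, -1.39 and -1.57, the same sign as Kdr, and experiment 1 gave 0.80 and 0.64. Within experiment 2 the mean was -1.06 on one date and -1.08 on the other. The fit gave 2.22 ± 0.36 in HF4 over HF4-REV (2.21 in experiment 2 alone), 2.09 ± 0.36 in HF4 over HF1 (2.08) and 2.10 ± 0.36 in HF3 over HF1 (2.00). HF0 over STD was -0.44 ± 0.29 over both experiments, -1.07 in experiment 2 and 0.19 in experiment 1. On the arrays of experiment 1, Selp gave -0.46 and -0.61 in HF3 over STD and 1.82 and 1.11 in HF4 over STD. Through the other pairings the values had the opposite sign, 2.08 and -0.10. In the fit HF4 over STD had 0.29 ± 0.29, with -0.09 in experiment 2, through HF0 alone, and 0.68 in experiment 1. Platelets also make P-selectin; the 9 measured platelet genes had medians between -0.17 and 0.15 over the 16 pairings. In HF4 over HF4-REV their median was 0.06 with 6 of 9 positive, and Pf4, platelet factor 4, was at -1.42 ± 0.35.

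Group values, each relative to the mean of STD, HF0, HF3 and HF4 in the same experiment, put the groups of experiment 2 in order. For Kdr the order was HF1-REV (2.04), HF1 (1.42), HF4-REV (1.27), HF3-REV (1.19), HF3 (0.75), STD (0.66), HF0 (-0.56) and HF4 (-0.85). Only HF1-REV with HF1, and STD with HF0, were neighbours further apart than 0.51, the SE of a difference between groups with 1 extract each. For Car4 the order was HF1-REV (1.93), HF3-REV (1.70), HF1 (1.52), HF4-REV (1.32), HF3 (0.54), STD (0.30), HF4 (-0.36) and HF0 (-0.49), with neighbours further apart than the SE of 0.36 between HF4-REV and HF3 and between STD and HF4. On both genes the 3 reversal groups and HF1 formed the upper end and HF0 and HF4 the lower one.

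The Sox18 order was HF4-REV (1.12), HF3-REV (1.09), HF1-REV (0.99), HF1 (0.66), STD (0.27), HF3 (0.22), HF4 (-0.22) and HF0 (-0.27). The 3 reversal groups lay within 0.23 of each other, the SE of such a difference for this gene, and above HF1. The Selp order was STD (0.34), HF4 (0.24), HF3 (0.16), HF3-REV (-0.68), HF0 (-0.73), HF1-REV (-1.27), HF1 (-1.84) and HF4-REV (-1.97), with an SE of 0.40 between groups of 1 extract. STD, HF4 and HF3 were not separated for Selp, nor were HF3-REV and HF0, nor HF1 and HF4-REV. The 3 reversal groups, next to each other for Sox18, were thus spread over the lower end for Selp.

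**Figure D3:**
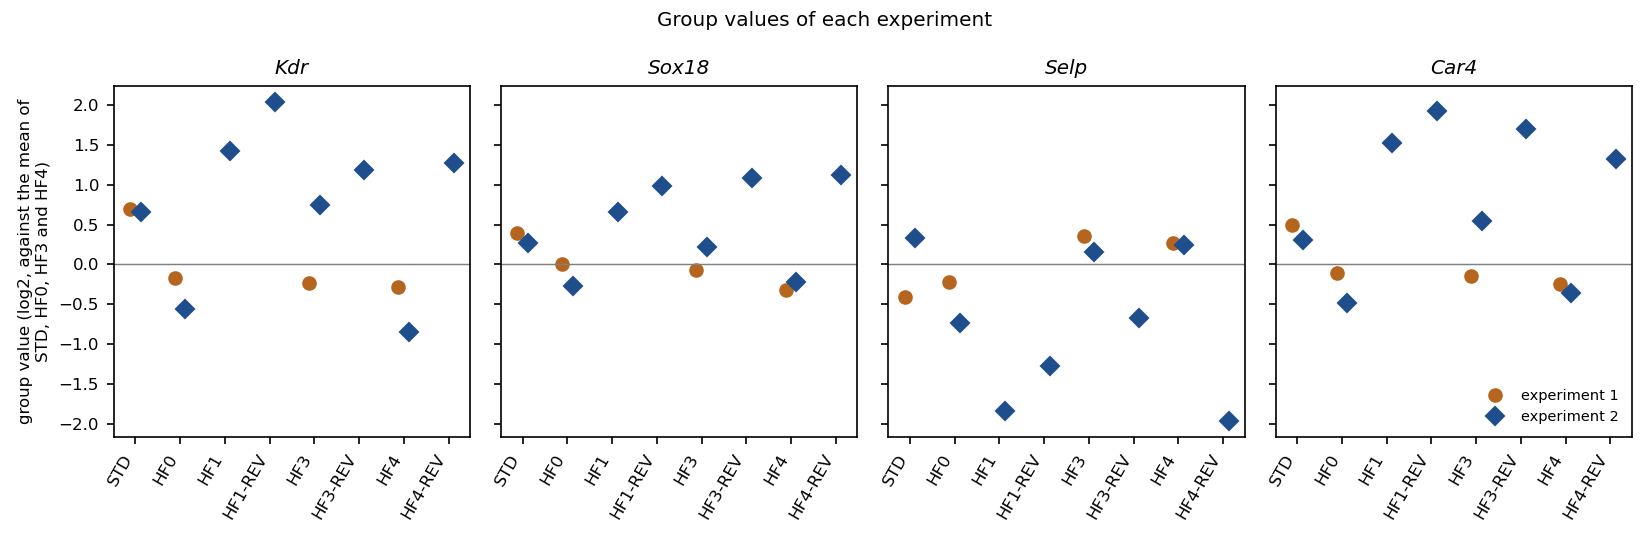
Group values of the 4 genes (vertical axis, log2, relative to the mean of STD, HF0, HF3 and HF4 of the same experiment), 1 point per group and experiment; experiment 1 (circles) holds 4 groups and experiment 2 (diamonds) 8. For Kdr, Sox18 and Car4 the reversal groups and HF1 lie above the other groups of experiment 2, for Selp HF1 and HF4-REV lie lowest at -1.84 and -1.97.

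Set against each other, Kdr, Car4 and Sox18 formed a group and Selp stood outside it. Kdr and Car4 had the same sign on 33 of 34 arrays, and on 22 of 22 in experiment 2. Sox18 had the sign of Kdr on 27 of 34 arrays and that of Car4 on 28. Selp had the sign of Kdr on 16 of 34, that of Sox18 on 17 and that of Car4 on 17. Over the 12 group values, which share arrays and extracts within an experiment, Pearson's r was 0.96 for Kdr with Car4, 0.96 for Sox18 with Car4 and 0.91 for Kdr with Sox18. Selp had r = -0.67 with Kdr, -0.73 with Sox18 and -0.72 with Car4. Over the 8 groups of experiment 2 alone the corresponding values were 0.95, 0.95, 0.89, -0.58, -0.65 and -0.64.

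**Figure D4:**
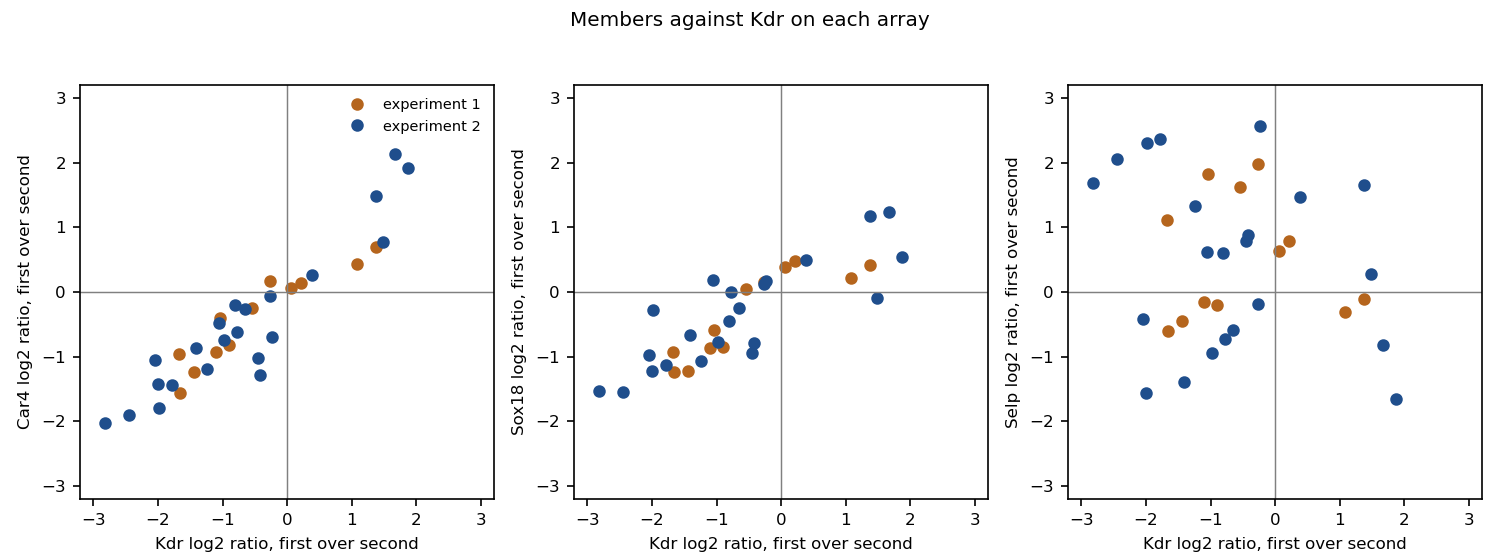
Log2 ratio of Car4, Sox18 and Selp (vertical axes) against that of Kdr (horizontal axis), first-named over second-named group, 1 point per array, orange for experiment 1 and blue for experiment 2. Car4 has the sign of Kdr on 33 of 34 arrays and Sox18 on 27, while Selp has it on 16.

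Among 5045 genes whose 12 group values had an SD of at least 0.3, those with the pattern most like each member were ranked by Pearson's r. For Kdr they were Hopx (0.99), Eif2ak3 (0.98), Jam2 (0.97), Tmbim6 (0.97) and Hadhb (0.97). For Sox18 they were Slc9a3r2 (0.98), Pnpla6 (0.96), Cd300lg (0.96), Tcf15 (0.96) and Trim34a (0.96), and for Car4 they were Pnpla6 (0.98), Egln1 (0.98), Rdh5 (0.97), Cd300lg (0.97) and Tmem147 (0.97). Pnpla6 and Cd300lg thus stood in both lists. For Selp they were Nts (0.97), Pcbp3 (0.95), Eva1c (0.93), Ramp3 (0.93) and Eid3 (0.91). These are descriptions over 12 values that share arrays.

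The relatives of the members were read from family lists, and 0 genes of any of these families passed limma's test in any of 12 comparisons, with a Benjamini-Hochberg adjusted p under 0.05 over all features. Of all features 11.2% passed in HF4 over HF4-REV, 4.21% in HF4 over HF0, 2.81% in HF4 over HF1, 0.437% in HF4 over STD, 0.0874% in HF3 over HF3-REV and 0% in the other 7 comparisons, which makes 1.56% over all 12. At an unadjusted p under 0.05 the share of all features over the 12 comparisons was 11.4%. Among receptors of the VEGF, angiopoietin and apelin pathways, 8 genes besides Kdr gave 96 values, of which 29 (30.2%) had an unadjusted p under 0.05. Flt1, VEGF receptor 1, had 1.06 ± 0.29 in HF1 over HF0 and -1.0 ± 0.29 in HF4 over HF1, and Aplnr, the apelin receptor, had 1.34 ± 0.33 and -1.62 ± 0.33. Tie1, an orphan receptor of the angiopoietin system, had 0.85 ± 0.33 and -1.08 ± 0.33. Tek, the angiopoietin receptor, had -0.11 ± 0.18 and -0.27 ± 0.18, and Flt4, the VEGF receptor of lymphatic vessels, -0.08 ± 0.16 and 0.13 ± 0.16, so these receptors had values near 0 where Kdr did not. Over the group values Flt1, Tie1 and Aplnr had r = 0.93, 0.92 and 0.90 with Kdr, and Flt4 had -0.68. Of the ligands, Vegfa had -0.16 ± 0.29 in HF1 over HF0 and 0.24 ± 0.29 in HF4 over HF1, and all 10 ligand genes together had 9 of 120 values with an unadjusted p under 0.05, or 7.5% where all features had 11.4%.

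Sox7 and Sox17, the other SoxF genes, did not repeat the values of Sox18. In HF4 over HF4-REV Sox7 had 0.59 ± 0.22 and Sox17 0.18 ± 0.44, and in HF3 over HF3-REV Sox7 had 0.52 ± 0.22 and Sox17 -0.01 ± 0.44. In HF0 over STD they had -0.60 ± 0.18 and -0.67 ± 0.34, the sign of Sox18. Of their 24 values, 5 (20.8%) had an unadjusted p under 0.05, against 11.4% of all features. Among 15 carbonic anhydrases besides Car4, Car3, an abundant enzyme of the adipocyte cytosol, had 1.83 ± 0.61 in HF1 over HF0, -1.65 ± 0.61 in HF4 over HF1 and -1.48 ± 0.61 in HF4 over HF4-REV. Car5b, a mitochondrial form, had 0.52 ± 0.18, -0.56 ± 0.18 and -0.62 ± 0.18. The median of the 15 genes was -0.01, -0.12 and 0.02 in these comparisons, and 20 of 180 values (11.1%) had an unadjusted p under 0.05, near the 11.4% of all features. Car3 had r = 0.94 with Car4 over the group values.

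Sele, which encodes E-selectin and is induced on the same vessels as Selp, had -0.04 ± 0.24 in HF1 over HF0, 0.12 ± 0.24 in HF4 over HF1 and 0.26 ± 0.24 in HF4 over HF4-REV. Selplg, the leukocyte ligand of P-selectin, had -0.13 ± 0.31, -0.15 ± 0.31 and -1.04 ± 0.31. Of 7 selectin and ligand genes besides Selp, 3 of 84 values (3.57%) had an unadjusted p under 0.05, against 11.4% of all features. Ackr1, Vcam1 and Icam1, markers of venular or activated endothelium, had pairing means in experiment 2 of 0.30, -0.14 and 0.21 in HF4 over HF4-REV and of -0.52, -0.67 and -0.15 in HF1 over HF0. None of the 3 reached the 2.21 or -1.24 of Selp in those pairings. In pattern over the group values Ackr1, the atypical chemokine receptor of venules, was close to Selp with r = 0.86.

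Beyond these families, 69 measured genes of 4 endothelial lists other than the members were counted: 29 pan-endothelial genes, 18 of capillaries and their lipid handling, 10 of venous or activated endothelium and 12 of arteries. In HF4 over HF1, 3 of 69 passed on the negative side, 4.35% of the lists where 0.0962% of all features passed on that side, and 0 on the positive side, where 2.72% of all features passed. At an unadjusted p under 0.05, 21 of 69 were negative (6.53% of all features) and 0 positive (9.99%). They were the capillary genes Cd300lg (-1.0 ± 0.17, adjusted p = 0.0448), Aqp7 (-1.26 ± 0.21, adjusted p = 0.0415) and Cdh13 (-1.22 ± 0.22, adjusted p = 0.0495). Cd300lg encodes nepmucin of capillary endothelium, Aqp7 a glycerol channel that adipocytes also make, and Cdh13 T-cadherin, which binds adiponectin. The fit has 1 extract of HF1, which was assumed to vary like the other groups. Its residual spread is that between the 2 experiments in STD, HF0, HF3 and HF4, and the loop of experiment 1 did not add up. The array means of Cd300lg, Aqp7 and Cdh13 in HF4 over HF1 were -0.88, -1.37 and -1.50. The count was 0 without the array of HF0 with STD, experiment 2 replicate 1 (2.15% of all features), or without that of HF3 with STD, experiment 1 replicate 1 (2.51%). Lone arrays of HF0 with STD, experiment 2 replicate 4, and of HF3 with HF1, replicate 2, left 1 when dropped (2.4% and 2.73% of all features), and 5 passed without HF4 with HF1 replicate 2 (3.51%).

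In HF4 over HF4-REV, 5 of 69 passed on the negative side (7.25%, where 3.8% of all features did) and 1 on the positive side (1.45%, where 7.35% did). At an unadjusted p under 0.05, 14 were negative (14.3% of all features) and 3 positive (17.1%). Gpihbp1, which anchors lipoprotein lipase to the capillary wall, had -1.85 ± 0.34 (adjusted p = 0.0274), and Timp4, a metalloproteinase inhibitor, -1.42 ± 0.24 (adjusted p = 0.0238). Cd300lg had -1.27 ± 0.17 (adjusted p = 0.0169), Tcf15, a transcription factor of capillary endothelium that serves fatty acid uptake, -0.89 ± 0.20 (adjusted p = 0.0442), and Fli1, an ETS transcription factor, -0.70 ± 0.16 (adjusted p = 0.0463). Slc27a3, a fatty acid transport protein, passed on the positive side with 0.67 ± 0.14 (adjusted p = 0.0380). All these p-values come from limma with 1 extract of HF4-REV, on the same assumption and the same spread between experiments as for HF1. In both directions together 8.7% of the lists passed, below the 11.2% of all features. The array means in this pairing were -1.96 for Gpihbp1, -1.55 for Timp4, -1.32 for Cd300lg, -0.89 for Tcf15, -0.67 for Fli1 and 0.63 for Slc27a3. Leaving out HF4 with HF4-REV replicate 1 gave 22 of 69 genes (31.9%, where 28.2% of all features passed) and replicate 2 gave 11 (15.9%, where 19.1% did), and dropping HF4 with HF0 replicate 2, HF4 with HF3 replicate 1, HF3 with HF1 replicate 2 or HF3 with HF0 replicate 2 of experiment 2 gave 3, where between 6.61% and 8.76% of all features passed.

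In the other 10 comparisons 0 of 69 passed limma's test. All features passed at 0.424% and 0.0131% on the positive and negative side in HF4 over STD, 4.19% and 0.0175% in HF4 over HF0, 0.0524% and 0.035% in HF3 over HF3-REV, and 0% in the rest. At an unadjusted p under 0.05, HF1 over HF0 had 16 of 69 on the positive side, where 3.74% of all features stood, and 2 on the negative side (3.44% of all). HF4 over STD had 26 on the negative side (5.58% of all) and 2 on the positive (9.41%), HF3 over STD 17 (3.32%) and 3 (4.14%), and HF0 over STD 15 (4.46%) and 1 (2.9%). HF3 over HF3-REV had 14 negative (5.85%) and 2 positive (9.55%), HF3 over HF1 12 (2.22%) and 4 (6.89%), HF1 over HF1-REV 4 (2.05%) and 0 (1.53%), HF4 over HF3 3 (0.979%) and 1 (4.52%), HF3 over HF0 2 (2.02%) and 1 (5.78%), and HF4 over HF0 1 (2.4%) and 1 (8.53%). The comparisons of the HF groups with STD share the STD extracts.

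The lists differed in how far they lay with Kdr and Car4. On the arrays of HF1 with HF0 the median was 0.50 for the capillary genes with 14 of 18 positive, 0.22 for the pan-endothelial genes with 20 of 29 positive, -0.07 for the venous genes with 4 of 10 and 0.03 for the arterial genes with 7 of 12. On those of HF4 with HF1 the medians were -0.84, -0.55, -0.10 and -0.37, and on those of HF4 with HF4-REV -0.51, -0.24, 0.11 and 0.12, where all features had 0.00 and 0.02. The capillary list holds genes that adipocytes also make, and the 12 adipocyte markers had medians of 0.37, -0.52 and -0.72 in these pairings. The part of adipocytes in the order of the lists was not tested. The furthest capillary gene was Cd36, a fatty acid transporter that adipocytes and macrophages also make, at 2.75, -3.11 and -3.05, and the furthest pan-endothelial one in HF1 over HF0 was Pecam1, the junction protein CD31, at 1.24, -1.74 and -1.17. Cdh5, VE-cadherin, the adherens junction protein of all endothelium, stayed at 0.02, 0.11 and 0.16. Icam2 had 0.96, -1.31 and -1.35 and Cldn5, the tight junction claudin, 1.09, -1.37 and -1.20.

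Over the group values, 20 of the 69 genes had r above 0.8 with Kdr, 17 with Car4, 11 with Sox18 and 1, Ackr1, with Selp, and the medians were 0.47, 0.40, 0.34 and -0.19. The share of all features with r above 0.8 was not computed, so such counts do not set the lists apart from other genes. The capillary genes had a median r of 0.75 with Kdr and -0.53 with Selp, the arterial genes 0.36 and 0.12, and the venous genes -0.10 and 0.33. Cd36, Pecam1, Cd300lg and Gpihbp1 had r = 0.97, 0.97, 0.94 and 0.93 with Kdr, whereas Cdh5 had 0.20 and Vcam1 -0.72. The group values of Cdh5 had an SD of 0.12, under the 0.3 set for the ranking above. Without intensities, an unchanged gene and a probe without signal cannot be told apart. Of the pan-endothelial genes 9 of 29 had r above 0.8 with Kdr, their median was 0.49 and the lowest was -0.21. Markers of that list thus did not all run with Kdr. The 12 adipocyte markers had a median r of 0.61 with Kdr, from -0.23 to 0.95, with 4 above 0.8. A high r with Kdr was thus not particular to endothelial genes.

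**Figure D5:**
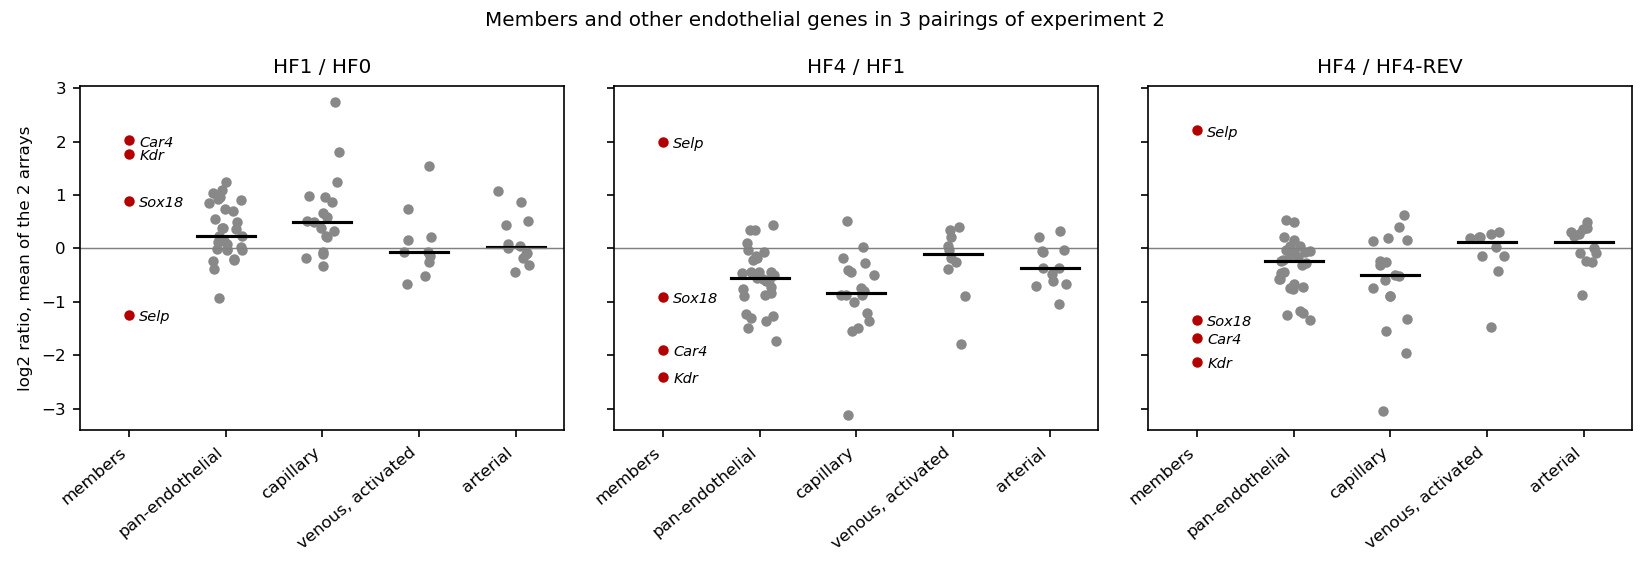
Mean log2 ratio over the 2 arrays (vertical axis) of the 4 members (red, named) and of the other genes of 4 endothelial lists (grey, 1 point per gene, bar at the median) in 3 pairings of experiment 2, first-named over second-named group. Of the 4 lists the capillary one, which holds genes that adipocytes also make, lies furthest towards the side of Kdr, Car4 and Sox18. Its medians are 0.50, -0.84 and -0.51, and Selp lies on the other side in all 3 panels.

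Markers of other cells moved in the same pairings, and their part in the members' values was not tested. In bulk tissue, fewer endothelial cells and less RNA per cell cannot be told apart. The 12 adipocyte markers had a median of 0.37 in HF1 over HF0 with 11 positive, -0.52 in HF4 over HF1 with 2 positive, -0.72 in HF4 over HF4-REV with 2 positive and -0.64 in HF0 over STD of experiment 2 with 2 positive, in each case the sign of Kdr. The 5 erythroid markers had 1.20 with 4 positive, -1.25 with 0, -0.80 with 0 and -0.06 with 1. The 20 male germ cell markers had 0.02 with 11 positive, 3.90 with 20, 3.72 with 20 and -2.69 with 0, and 2.93 with 20 positive in HF3 over HF3-REV. Apart from HF1 over HF0 these are the signs of Selp, while in HF1 over HF1-REV the germ cell median was 1.01 and Selp was negative. Over the group values 11 of the 20 germ cell markers had r above 0.8 with Selp, against 1 of the 69 endothelial genes. The share of all features was not computed here either. The median r of the germ cell markers was 0.81 with Selp and -0.62 with Kdr.

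The 14 markers of the epididymal epithelium, a second known site of Car4, had a median of -5.05 with 0 positive in HF0 over STD of experiment 2, where Car4 had a mean of -0.79, and of 0.41 with 10 positive in HF1 over HF0, where Car4 had 2.02. In HF4 over HF4-REV they had 0.83 with 9 positive, the opposite sign to Car4. The 12 pericyte and vascular smooth muscle markers had -0.06 in HF1 over HF0, -0.22 in HF4 over HF1 and -0.07 in HF4 over HF4-REV. Mylk, the myosin light chain kinase, was the member of that list that passed, with -1.23 ± 0.21 in HF4 over HF1 (limma adjusted p = 0.0416, again with 1 extract of HF1) and -1.37 ± 0.16 in HF4 over STD (limma adjusted p = 0.0464). The 8 lymphatic markers had medians between -0.22 and 0.30 over the 16 pairings. The 13 macrophage markers had 1.09 in HF0 over STD of experiment 2 with 13 positive and -0.37 in HF4 over HF4-REV with 2 positive.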

How the data were processed

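Epididymal fat was compared on two-colour arrays, 1 diet group per dye, per the labels. The log ratios that the authors deposited, for 25344 probes, were used as log2 values. They run from -6.31 to 7.99, beyond the 4.82 that base 10 allows for 16-bit intensities; a natural log was not excluded, so no folds are given. No source used here states the background correction, the normalization or the numerator dye. No intensities were in the table, so background methods and dim-probe filters could not be varied, and precision is limited by the number of arrays. RNA came from Trizol in experiment 1 and Qiagen reagents in experiment 2, per the labels.

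Of the probes 21082 had 1 symbol, 30 several and 4232 none, and 20456 symbols were updated by gene ID. Arrays were centred on their medians (-0.062 to 0.046 before), probes of 1 gene averaged (22879 features) and sign-turned arrays of a pairing averaged. Group values came from least squares within each experiment and entered limma 3.58.1 in R 4.3.3 blocked on experiment, with 3 residual and 3.16 prior df, and p-values were adjusted over all features by Benjamini-Hochberg. Nothing says that extracts hold separate animals, so p-values reflect the spread of extracts alone, which may be technical. The fit was tested on simulated data. Other steps ran in Python 3.11.15 (pandas 2.3.3, numpy 2.4.6, matplotlib 3.10.9).

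The members and gene lists were chosen with earlier results of these data known. Genes were named by rule: the members, their families, up to 4 genes per list past the threshold, up to 3 per list with the largest values of 1 sign on all arrays, and the 5 most alike per member. Cdh5 was named as a defining marker after its values were seen. Alternatives were other normalizations, centring, priors, probe choices, array- and pairing-level fits, single experiments and leaving out extracts, dates or arrays.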

Additional observations from a re-analysis of the deposited data

Results flagged for a closer look

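Several values of the members had opposite signs in different settings on every array concerned, and none of these differences was tested. Between experiment 1 and experiment 2, the mean of HF0 over STD differed by 1.34 for Kdr, 1.79 for Selp and 0.89 for Car4 (experiment 1 minus experiment 2), with 2 arrays on the positive side in experiment 1 and 4 on the negative side in experiment 2 for each gene. HF3 over HF0 differed by -1.83 for Kdr, which was negative on both arrays of experiment 1 and positive on both of experiment 2. HF4 over HF0 differed by -1.25 for Selp, negative in experiment 1 and positive in experiment 2. RNA extraction differed between the experiments, and the pairings of experiment 1 did not add up around their loop.

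Within experiment 2, the P-selectin gene Selp had opposite signs between reversal pairs. HF3 over HF3-REV exceeded HF1 over HF1-REV by 1.41, and HF4 over HF4-REV exceeded it by 2.78. Kdr, Car4 and, except for 1 Sox18 array of HF1 over HF1-REV, Sox18 kept 1 sign over all 3 reversal pairs. Each reversal pair has 1 extract per group and 2 arrays.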

How the results depend on the processing

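No paired analysis was possible because the replicate numbers only name arrays in accession order. The depth of the arrays is unknown. The counts of endothelial genes past the threshold, 3 of 69 in HF4 over HF1, 6 in HF4 over HF4-REV and 0 elsewhere, moved with the unit of the fit. Shares in brackets are those of all features in the same fit. With each array as a unit, 19 (13.2%) passed in HF0 over STD, 4 (1.8%) in HF3 over STD, 26 (14.2%) in HF4 over STD, 20 (7.17%) in HF1 over HF0, 3 (11.6%) in HF3 over HF0, 1 (14.8%) in HF4 over HF0, 17 (8.37%) in HF3 over HF1, 29 (20.7%) in HF4 over HF1, 3 (7.61%) in HF4 over HF3, 1 (1.97%) in HF3 over HF3-REV and 11 (20.1%) in HF4 over HF4-REV; arrays of a dye swap then count as separate. The share of the 69 genes, 1.45% for each gene, was above that of all features in 6 of these 11. A fit to the 16 pairing means, chosen after seeing the data, gave 2 (5.11%) in HF4 over STD, 1 (0.721%) in HF1 over HF0, 1 (0.691%) in HF3 over HF1, 17 (14.4%) in HF4 over HF1 and 5 (13%) in HF4 over HF4-REV, above all features in 3 of 5. Without the STD extract of experiment 2 the counts were 1 (3.92%) in HF4 over STD, 1 (2.55%) in HF3 over HF0, 2 (1.97%) in HF3 over HF1, 9 (6%) in HF4 over HF1, 3 (3.87%) in HF3 over HF3-REV and 13 (21.3%) in HF4 over HF4-REV, above all features in 3 of 6. Quantile normalization left 0 (0.127%) and scale normalization 2 (4.78%) in HF4 over HF4-REV, and quantile normalization gave 2 (1.03%) in HF3 over HF3-REV. Without the arrays of the last date 3 (8.88%) passed in HF4 over HF4-REV and 1 (0.852%) in HF4 over STD, where no centring (0.455%) and the most variable probe per gene (0.476%) also gave 1 each. Leaving out 1 array gave 0 to 1 in HF1 over HF1-REV and HF4 over STD, 0 to 6 in HF3 over HF3-REV, 0 to 5 in HF4 over HF1, 3 to 22 in HF4 over HF4-REV and 0 in the rest. The cause was not tested for any of these. Experiment 1 or 2 alone leaves no residual degrees of freedom, so it gives values and no count.

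For the members, 20 of 1632 values with 1 array left out moved by more than the gene's residual SD in the fit and 20 changed sign, of which all but 1, Sox18 in HF1 over HF1-REV, were main values nearest 0 (Car4 in HF4 over HF0 and Selp in HF4 over HF3). Experiment 2 alone moved 16 of 48 values and turned 7, and experiment 1 alone moved 12 of 24 and turned 4. Without the STD extract of experiment 2, Selp in HF0 over STD became 0.06. Quantile normalization moved 9 of 48, scale normalization 4, dropping that STD extract 3 and the array- and pairing-level fits 2 each. No centring, the robust prior, the most variable probe and the last date moved 0 of 48.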
